A study of Mus musculus with 17 samples.

Results

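The macrophage metalloproteinase loci were followed in ATAC-seq peak lists, in which Tn5 transposase marks accessible DNA. They are the genes of 6 matrix metalloproteinases (Mmp8, Mmp9, Mmp12, Mmp13, Mmp14 and Mmp19), of the inhibitors Timp1 and Timp2, and of the membrane sheddase Adam17. Every deposited peak within 20 kb of the 9 gene bodies was taken, in GENCODE M21 coordinates of mm10. Of 803 such peaks, 537 fell into 34 accessible elements, out of 34184 elements over the whole genome. An element is a stretch of merged peaks found in at least 2 of the 17 lists, each list cut to its 24389 best peaks, the number in the shortest list.

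Macrophages (BMDMs) had been grown from bone marrow of male C57Bl6/J mice aged 6 to 12 weeks, over 7 days in L929-conditioned medium. The 8 BMDM-WT lists came from wild-type littermates and the 9 BMDM-Nur77-KO lists from mice lacking the nuclear receptor Nur77 (Nr4a1) in the whole body, a line made with CMV-Cre and loxP-flanked Nr4a1 and then bred free of Cre, although the genotype label of these samples reads "cre". Each genotype was left untreated (0 h) or given 100 ng/ml lipopolysaccharide (LPS) for 1 or 18 h. There were 3 lists per group, except for WT at 1 h, which had 2, the label of 1 of them reading replicate 1-2. No label ties a list to an animal, so p-values measure only the spread between these samples.

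Matrix metalloproteinases are zinc-dependent enzymes that cut extracellular matrix. Mmp8 and Mmp13 are collagenases, Mmp9 is a gelatinase, Mmp12 is the macrophage elastase, Mmp14 is a membrane-bound enzyme that activates pro-Mmp2, and Mmp19 is a secreted enzyme. Timp1 and Timp2 bind and block these enzymes, and Timp2 also takes part in the activation of pro-Mmp2 by Mmp14. Adam17 releases tumour necrosis factor from the surface of macrophages. In macrophages several of these genes are induced by LPS.

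Peaks were ranked inside each list by p-value, rank 1 being the top. The rank score of an element is log2 of 24390 divided by its rank, so that it is 0 when the element has no peak among the 24389 best, and 1 unit is a factor of 2 in rank. Elements are named by the distance of their summit from the start of the gene's curated RefSeq transcript. A peak list holds no counts, but the reads at each summit could be recovered from fold and p-value for 100% of entries, and are given in places. Lists differed in depth from 0.382 to 9.75 background reads per kb and the reads at the last of the 24389 peaks from 3 to 69. WT lists at 1 h were shallow (0.382 and 1.61), KO lists at 18 h lay between 1.10 and 1.76 and WT lists at 18 h between 4.62 and 8.38. The list of KO at 18 h replicate 1 had narrow peaks, with a median of 135 bp against 338 to 661 bp in the other lists. In cell populations, fewer cells with an open element and less opening per cell cannot be told apart.

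The promoters of the macrophage genes Csf1r, Adgre1, Itgam, Spi1, Cd68 and Mertk had a peak among the best 24389 in all 17 lists. Adgre1, Itgam and Mertk had a promoter element of their own, and that of Itgam moved behind at 1 h of LPS, that of Adgre1 had an adjusted p under 0.05 at 1 h without meeting the rule on lists, and those of Mertk and of the T cell marker Cd3d moved behind at 18 h, the same way as the elements that moved behind at those times. Their part in those results was not tested. Among markers of other bone marrow cells, Ngp, Ltf, Cd3e and Bglap had no promoter peak in any list, Camp had a matched one in 10 lists, Cd3d in 17, Col1a1 in 14, Pdgfra and Sp7 in 1 each, and Mpo and Pax5 in 0. Camp, a neutrophil granule gene, had its matched peak in 0 of 6 lists at 0 h and in all 5 lists at 1 h, moving the same way as the elements that moved ahead at 1 h, and its part was likewise not tested. The promoter of the targeted gene Nr4a1 had a matched peak in all KO lists at 0 and 1 h and in no KO list at 18 h, and in WT in all lists at 0 and 1 h and in 1 list at 18 h, so a promoter peak does not check the deletion.

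The sequences of 8 elements are shown because the results turn on them: 5 moved ahead after 1 h of LPS, Mmp9 −5.1 kb and Mmp12 −7.1 kb moved behind, and Timp2 −7.9 kb had the best median rank of the distal elements. Each is 201 bases of GRCm38 (mm10), centred on the summit and written 5′ to 3′ on the strand of its gene, with matches to the motifs searched in capitals. The windows are chr2:164947895-164948095 (plus strand) for the Mmp9 promoter, chr2:164942982-164943182 (plus) for Mmp9 −5.1 kb, chr9:7337166-7337366 (plus) for Mmp12 −7.1 kb, chr9:7261660-7261860 (plus) for Mmp13 −10.8 kb, chr14:54442523-54442723 (plus) for Mmp14 +11.0 kb, chr11:118363263-118363463 (minus) for Timp2 −7.9 kb, chr11:118337631-118337831 (minus) for Timp2 +17.8 kb and chr12:21335946-21336146 (minus) for Adam17 +37.6 kb. None of them overlaps an annotated exon.
Mmp9 −0.2 kb: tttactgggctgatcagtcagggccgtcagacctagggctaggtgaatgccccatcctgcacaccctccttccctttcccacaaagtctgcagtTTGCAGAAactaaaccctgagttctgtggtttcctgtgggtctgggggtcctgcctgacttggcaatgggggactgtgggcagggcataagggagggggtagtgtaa
Mmp9 −5.1 kb: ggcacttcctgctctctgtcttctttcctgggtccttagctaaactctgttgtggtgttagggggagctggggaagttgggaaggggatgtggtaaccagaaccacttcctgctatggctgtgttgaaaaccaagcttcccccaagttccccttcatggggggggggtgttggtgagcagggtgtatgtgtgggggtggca
Mmp12 −7.1 kb: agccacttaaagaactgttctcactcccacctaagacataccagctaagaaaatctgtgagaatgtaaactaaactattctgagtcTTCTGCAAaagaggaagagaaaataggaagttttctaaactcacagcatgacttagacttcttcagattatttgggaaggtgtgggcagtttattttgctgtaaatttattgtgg
Mmp13 −10.8 kb: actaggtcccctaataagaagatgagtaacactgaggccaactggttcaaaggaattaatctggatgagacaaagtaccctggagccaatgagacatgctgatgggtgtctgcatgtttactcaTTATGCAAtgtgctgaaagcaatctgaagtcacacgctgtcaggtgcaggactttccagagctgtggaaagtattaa
Mmp14 +11.0 kb: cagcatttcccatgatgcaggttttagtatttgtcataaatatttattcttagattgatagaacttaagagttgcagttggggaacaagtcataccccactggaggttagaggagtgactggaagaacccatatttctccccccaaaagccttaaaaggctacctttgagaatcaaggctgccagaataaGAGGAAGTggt
Timp2 −7.9 kb: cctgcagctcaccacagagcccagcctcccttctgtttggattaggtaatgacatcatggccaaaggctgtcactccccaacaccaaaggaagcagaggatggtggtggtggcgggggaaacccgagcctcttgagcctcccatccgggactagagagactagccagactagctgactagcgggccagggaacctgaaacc
Timp2 +17.8 kb: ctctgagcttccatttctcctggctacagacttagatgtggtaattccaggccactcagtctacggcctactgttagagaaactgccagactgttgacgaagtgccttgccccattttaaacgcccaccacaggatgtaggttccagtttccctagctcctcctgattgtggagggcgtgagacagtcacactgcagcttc
Adam17 +37.6 kb: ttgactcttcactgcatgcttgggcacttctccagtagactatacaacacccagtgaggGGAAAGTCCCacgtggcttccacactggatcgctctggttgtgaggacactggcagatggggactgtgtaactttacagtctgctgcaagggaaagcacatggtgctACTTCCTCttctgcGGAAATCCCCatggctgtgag

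The capitals mark a C/EBP match (TTGCNNAA) at the centre of the Mmp9 promoter window and further matches at Mmp12 −7.1 kb and Mmp13 −10.8 kb, a PU.1 match (GAGGAAGT) at Mmp14 +11.0 kb, and a PU.1 match beside 2 NF-kB matches at Adam17 +37.6 kb. Motifs were sought on either strand, up to 100 bp to each side of a summit. Over the 34 elements, C/EBP was found in 8, or 23.5%, against 11.0% of all 34184 elements in windows of the same length. AP-1 (TGACTCA), the factor family of immediate-early genes, was found in 3 elements (8.82% against 16.5%), at Mmp9 +24.7 kb, Mmp19 −11.3 kb and Timp2 −9.8 kb. PU.1, a lineage factor of macrophages, was found in 3 (8.82% against 7.82%) and NF-kB in 3 (8.82% against 4.87%). The Nur77 monomer motif NBRE (AAAGGTCA), the interferon element ISRE and CTCF were found in 0 of 34, against 1.00%, 3.69% and 2.88% of all elements. A match says only that these letters are present in the window, and no motifs overlapped in the 8 sequences shown.

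The 34 elements were spread unevenly over the 9 genes. Mmp9 had 9, Timp2 had 7, Mmp14 had 5, Mmp19 and Adam17 had 4 each, Mmp8 and Mmp12 had 2 each, Mmp13 had 1 and Timp1 had 0. By position 5 were promoters of the 9 genes, 8 were promoters of neighbouring genes and 21 were distal, that is, more than 1 kb from any protein-coding start. The 8 neighbouring promoters were those of Mmp27, Slc12a5, Mrpl52, Lrp10, Dnajc14, Ormdl2, Usp36 and Iah1. They included the element with the best median rank in the windows, the Usp36 promoter beyond the end of Timp2 (median rank 294), followed by the Ormdl2 promoter (1563.5). In 10 of the 34 elements a peak stood among the best 24389 in all 17 lists. The other 266 peaks in the windows formed 73 weaker regions, 27 of them in a single list and 7 in 8 lists or more, with best ranks from 17414 to 69634.

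**Figure D1:**
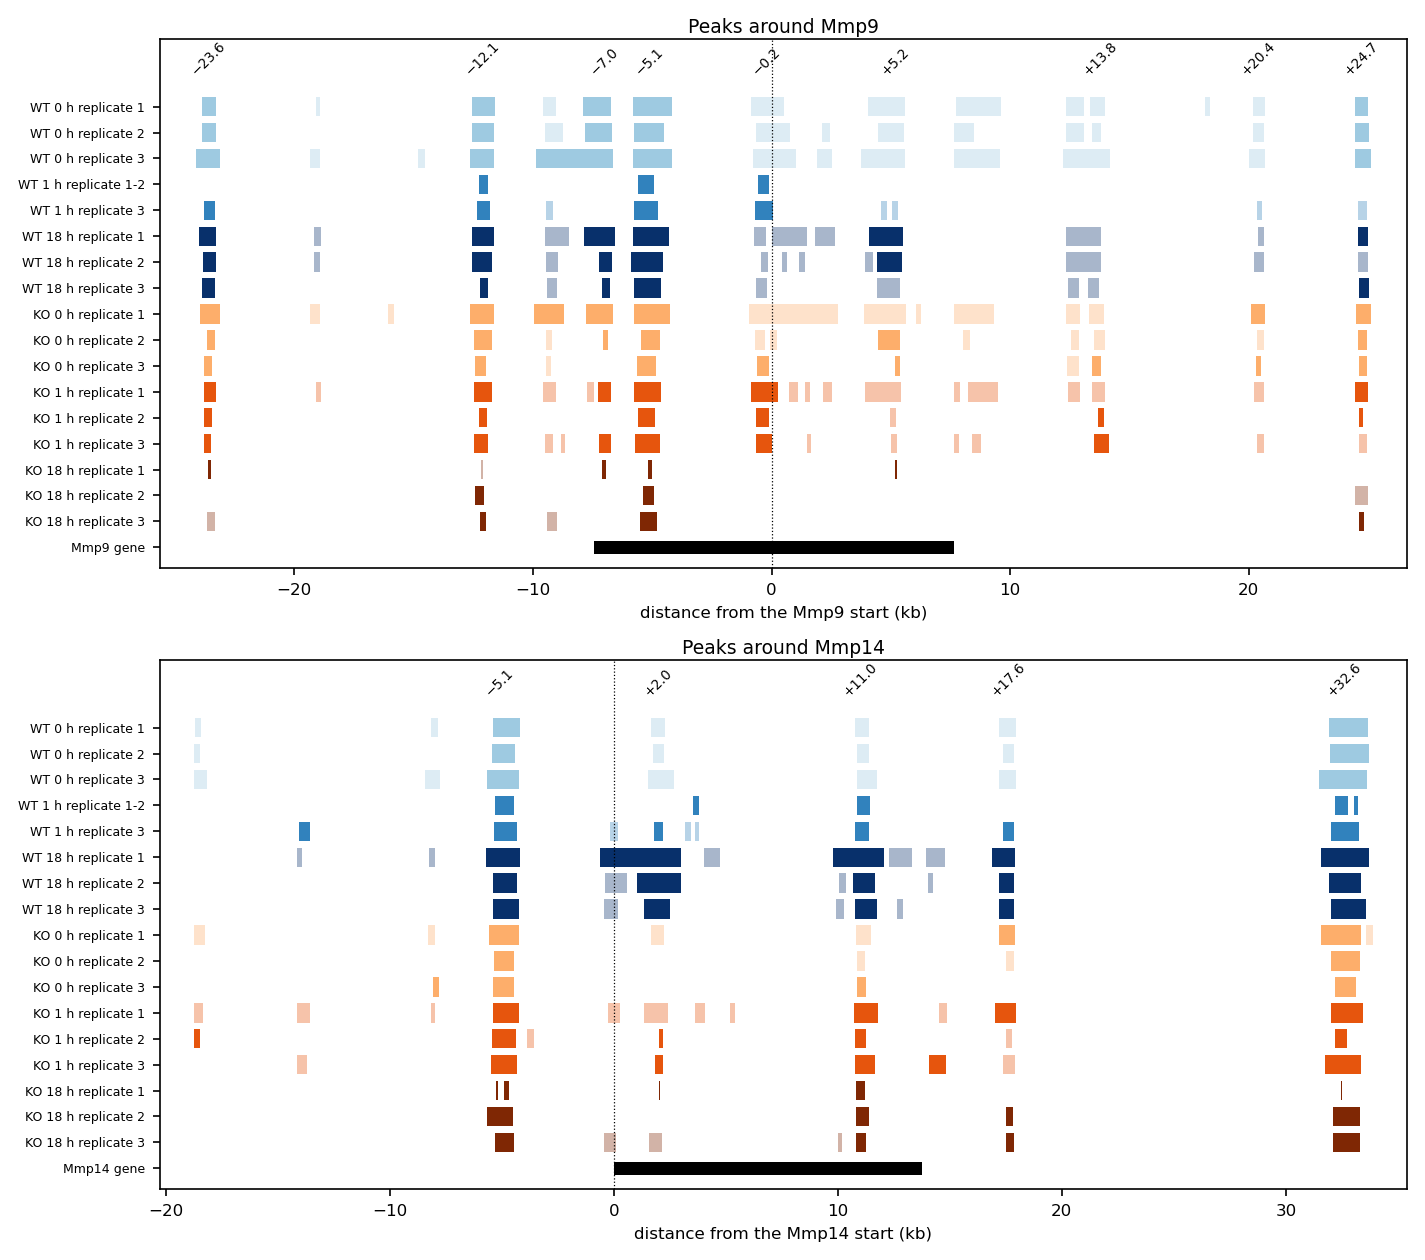
Peaks around Mmp9 (top) and Mmp14 (bottom) in the 17 lists, by distance in kb from the gene's start (dotted line). Full colour marks peaks among the 24389 best of their list and pale colour weaker ones, the black bar is the gene body in GENCODE, and the numbers give the distance of each element. At Mmp9 −0.2 kb the peaks are in full colour in the 5 lists at 1 h and in 1 list at 0 h, and at Mmp14 +11.0 kb in all lists with LPS and in 1 list at 0 h.

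The question for the promoters was which of the 9 genes had an accessible start in these macrophages. Adam17 and Timp2 had a promoter peak among the best 24389 in all 17 lists. At Adam17 (chr12:21372869-21374293, summit 46 bp upstream) the ranks were 3287, 3785 and 2669 in WT at 0 h, 2229 and 3708 in WT at 1 h, 4453, 3731 and 2764 in WT at 18 h, 2442, 6393 and 3331 in KO at 0 h, 3117, 2183 and 3898 in KO at 1 h, and 13081, 6227 and 5703 in KO at 18 h. The 3 KO lists at 18 h ranked it behind all WT lists at 18 h, and over the 3 times KO and WT lists overlapped. The KO minus WT difference in rank score was −0.46 ± 0.25 (SE), with adjusted p = 0.704 in the exact permutation test. The Timp2 promoter (chr11:118353358-118356533) ranked between 7450 and 22197 over the 17 lists. In WT both lists at 1 h ranked it behind every list at 0 h (9263, 11123 and 10043 against 11828 and 22197), in KO the lists overlapped, and it did not count as moved in any comparison.

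Mmp9 has 2 promoter elements, since GENCODE gives it a short upstream transcript beside the curated one. The upstream promoter, Mmp9 −7.0 kb (chr2:164938249-164941641), was among the best 24389 in 11 lists and did not count as moved. In WT all 3 lists at 0 h had it there (20425, 22693 and 20308) and neither list at 1 h did, a difference of −0.21, while that of KO was 0.26 with overlapping lists. At 18 h the difference over both genotypes was 0.05 ± 0.18 (SE). That element is 3393 bp wide, and its summits lay up to 2413 bp apart between lists. The start of the curated transcript behaved differently, as described below. The Mmp19 promoter (chr10:128790685-128791200) was weak, with a matched peak in 2 lists and some peak in 11, at ranks from 23586 to 54662.

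The remaining 5 genes had no promoter element. Near the Mmp8 start a peak was deposited in 11 lists, 1 of them within the best 24389, at ranks from 22025 to 36237. For Mmp12 there was a promoter peak in 5 lists, for Mmp13 in 7, for Mmp14 in 6 and for Timp1 in 4, none of them among the best 24389. Peaks were assigned to a promoter by their summit, and in WT at 18 h replicate 1 a matched peak with its summit further inside Mmp14 (rank 16879, element Mmp14 +2.0 kb) reached across the start. The Mmp14 promoter peaks appeared in 0 of 6 lists at 0 h, in 1 WT list and 1 KO list at 1 h, and at 18 h in all 3 lists of WT and a single list of KO, at ranks from 24425 to 54662. The Timp1 peak, 3 bp from the start on chromosome X, stood in 1 WT list at 0 h, 1 WT list at 1 h and 2 KO lists at 1 h. The mice were male, and ranks were not adjusted for the single X chromosome, so ranks at Timp1 cannot be set equally beside those of the other genes. Among 29 further genes of the family (other Mmp, Timp and Adam genes, Reck, the Adam17 partners Rhbdf1, Rhbdf2 and Frmd8, and the activators Plau and Furin), 6 had a matched promoter peak in all 17 lists: Adam8, Adam9, Adam10, Adam15, Rhbdf2 and Frmd8. In 7 it was present in some lists and in 16 in none, and 9 of those had no deposited promoter peak at all. Of the 12 promoter elements of these genes, that of Plau (urokinase) moved ahead at 1 h of LPS and 0 moved behind, beside 3.76% and 14.6% of all promoter elements, and 0 moved either way at 18 h, beside 2.61% and 8.4%.

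**Figure D2:**
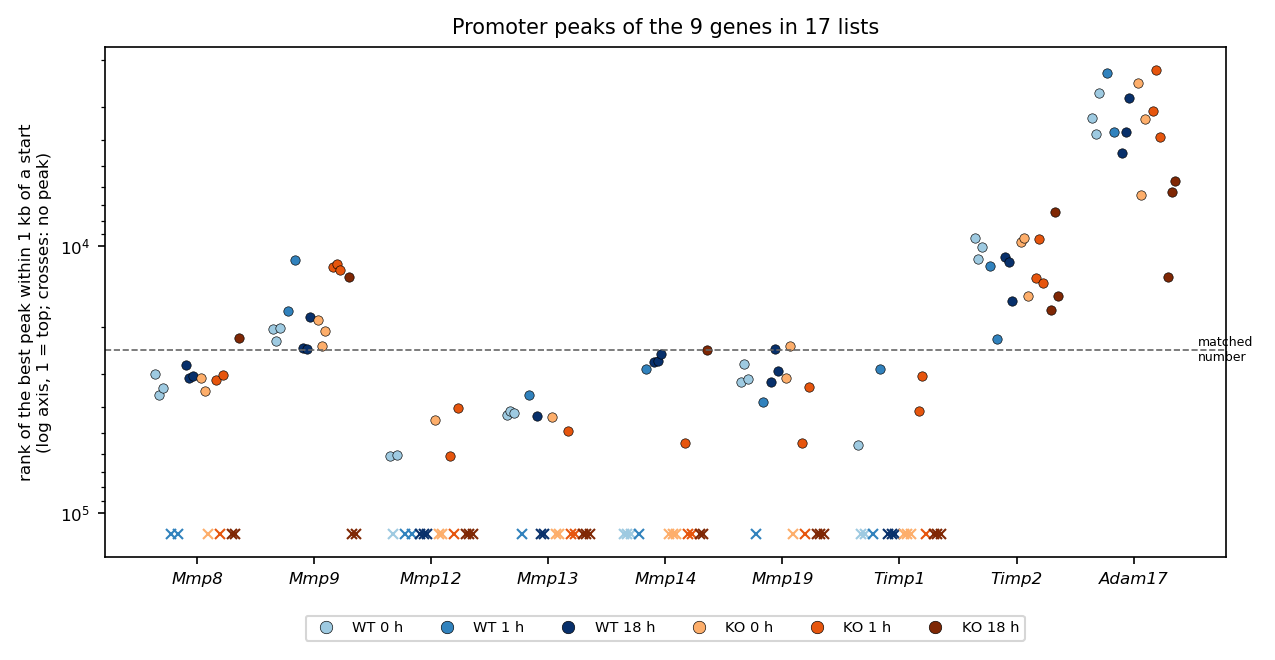
Rank of the best peak with its summit within 1 kb of any protein-coding start of each of the 9 genes, 1 point per list, coloured by genotype and time, on a log axis with rank 1 at the top. Crosses are lists with no such peak and the dashed line is the matched number of 24389. Adam17 and Timp2 lie above the line in all 17 lists, Mmp12, Mmp13, Mmp14 and Timp1 in none, and Mmp9 combines its upstream and curated starts.

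The comparison of 1 h of LPS with 0 h asked which elements changed their rank early. A rank is relative to the other peaks of its list, so an element that moved behind need not have closed. An element counts as moved when, in both genotypes, every list at 1 h ranked it ahead of every list at 0 h of that genotype, or every list behind. Of the 34 elements 10 moved, 5 ahead and 5 behind (29.4%), beside 20.4% of all 34184 elements, with 9.41% ahead and 11.0% behind. All 10 had an adjusted p under 0.05 (22.6% of all elements did, 10.2% ahead and 12.4% behind) in the exact permutation test over the 200 regroupings within genotype, whose smallest p is 0.005. Without any one of 7 lists (all 3 of WT at 0 h, both of WT at 1 h, or replicate 1 of KO at 0 h or at 1 h) 0 had an adjusted p under 0.05, the smallest p then being 0.01 to 0.0167, and with ranks limited at 10000 there were 2 moved and 0 by adjusted p. The adjusted p was 0.0272 for 9 of them and 0.0442 for Timp2 +6.5 kb. By position, 4 of the 21 distal elements moved ahead and 4 behind, beside 11.8% and 9.43% of all distal elements, and of the 13 promoters 1 moved ahead and 1 behind, beside 3.76% and 14.6% of all promoters. At an unadjusted p under 0.05 there were 12 of 34, beside 36.5% of all elements. The WT lists at 1 h were shallower than those at 0 h (0.382 and 1.61 against 5.11 to 9.75 background reads per kb), and with ranks adjusted for depth 12 elements moved, beside 24.8% of all. The 10 calls were also made when the summit had to lie inside the element, whereas 0 elements moved when a peak had to cover 50% of it. Under that stricter rule 9 of the 10 differences kept their sign, among them −0.58 for the Iah1 promoter and 0.89 for Mmp13 −10.8 kb, and that of Mmp14 +11.0 kb became 0. The median rank score difference was −0.004 over the 34 elements and −0.02 over all elements. The elements that moved ahead were the Mmp9 promoter, Mmp13 −10.8 kb, Mmp14 +11.0 kb, Timp2 +17.8 kb and Adam17 +37.6 kb. The first 3 of these had a matched peak in at most 1 list at 0 h, so they became elements only through lists with LPS. For the Mmp9 promoter and Mmp13 −10.8 kb, with no matched peak at 18 h, the direction at 1 h was largely fixed by that choice. Mmp14 +11.0 kb had one in every list at 18 h as well. Its rank score was 0 in all WT lists at 0 h, so it could not have moved behind. Timp2 +6.5 kb, which moved behind, had a matched peak in 0 lists at 1 h and became an element through the other times.

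The Mmp14 element had the largest difference of the 34. It lies 11.0 kb past the Mmp14 start (chr14:54441380-54443659), in an intron of a long Mmp14 transcript and 1358 bp past the end of the curated one. Its ranks at 0 h were 34547, 32177 and 29713 in WT and 29607, 26882 and 18588 in KO. At 1 h they were 832 and 1932 in WT and 1386, 3321 and 2021 in KO. The groups did not overlap in either genotype, and the last list at 1 h (3321) stood far ahead of the best list at 0 h (18588). The WT rank score went from 0.00 ± 0.00 (SD, n = 3) to 4.27 ± 0.86 (n = 2) and that of KO from 0.13 ± 0.23 (n = 3) to 3.54 ± 0.63 (n = 3). The difference was 3.84 ± 0.30 (SE), or 14.3-fold in rank. The element was found only through lists with LPS, at 1 h and at 18 h, so its place among the elements and this difference are not fully independent. Ranks past 24389 count as 24390, and without that limit the difference was 4.10. With ranks limited at 10000 it was 2.61, and when a peak had to cover 50% of the element it was 0 and the call was lost.

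The Adam17 element was open before LPS and moved further up. It lies in an intron, 37.6 kb past the start (chr12:21335395-21336827), and had a matched peak in all 17 lists. The ranks at 0 h were 4470, 3995 and 5020 in WT and 3980, 4734 and 4865 in KO. At 1 h they were 1376 and 1558 in WT and 1386, 743 and 1563 in KO. No list at 1 h overlapped the lists at 0 h. The difference in rank score was 1.78 ± 0.20 (SE), 1.61 in WT and 1.94 in KO, or 3.43-fold in rank.

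The other elements that moved ahead were weak or without a matched peak before LPS. The Mmp9 promoter (chr2:164947367-164948481, summit 224 bp upstream of the curated start) had ranks of 38271, 39911 and 31492 in WT and 35132, 33116 and 20689 in KO at 0 h. At 1 h it reached 17414 and 11284 in WT and 11995, 11685 and 12233 in KO. The summits held 5 to 67 reads at 1 h, and the rank score difference was 0.87 ± 0.11 (SE), for an element that was found through the lists at 1 h. The element upstream of Mmp13, a gene of the metalloproteinase cluster on chromosome 9 (chr9:7261365-7262118), had a peak at 0 h in 1 of 3 lists of each genotype, at ranks 50225 in WT and 50133 in KO. At 1 h it had one in every list, at 17414 and 6480 in WT and at 8291, 22863 and 12975 in KO, a difference of 1.03 ± 0.33 (SE). It ranked within 24389 in the 5 lists at 1 h and in none of the other lists, so its place among the elements and this difference are not independent. Without the limit at 24389 the differences were 1.32 for the Mmp9 promoter and 1.99 for Mmp13 −10.8 kb. The Mmp13 promoter itself had no matched peak in any list. The intronic Timp2 +17.8 kb element (chr11:118337323-118338392) moved from ranks of 10484 to 20713 at 0 h to 11828 and 14303 in WT and 10179, 9346 and 4993 in KO at 1 h. In KO the margin was narrow, since replicate 2 at 0 h stood at 10484, and the difference was 0.72 ± 0.24 (SE).

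The elements that moved behind at 1 h were Mmp9 −5.1 kb, Mmp9 +24.7 kb, Mmp12 −7.1 kb, Timp2 +6.5 kb and the promoter of Iah1, an esterase gene next to Adam17. Mmp9 −5.1 kb (chr2:164942342-164944069), between both Mmp9 starts, ranked 6887, 8131 and 7563 in WT and 10102, 7132 and 8355 in KO at 0 h. At 1 h it ranked 14418 and 15883 in WT and 14486, 13130 and 13768 in KO. At the same gene the curated promoter moved ahead (0.87) and the element 5.1 kb upstream of it moved behind (−0.86 ± 0.10, SE), in each list of both genotypes. That promoter was found through the lists at 1 h, so its direction is not independent of that choice, and the contrast was not tested. The differences of the other elements were smaller, at −0.47 ± 0.08 for Mmp9 +24.7 kb in an intron of Slc12a5, −0.34 ± 0.10 for Mmp12 −7.1 kb, −0.30 ± 0.07 for Timp2 +6.5 kb and −0.56 ± 0.10 for the Iah1 promoter. At Mmp12 −7.1 kb the KO margin was narrow, with 12738 the last rank at 0 h and 12975 the best at 1 h. It was also narrow at Mmp9 +24.7 kb, where these ranks were 18882 and 19586, the second resting on 7 reads. For Mmp9 +24.7 kb and Timp2 +6.5 kb the shallow list of WT at 1 h replicate 1-2 had no peak at all. At Timp2 +6.5 kb replicates 2 and 3 of KO at 1 h had none either. The remaining lists at 1 h ranked it 38263 in WT and 41345 in KO, so all lists at 1 h stood at the limit of the rank score.

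The distal elements with the best median rank at Mmp8 and Mmp19 passed neither rule at 1 h. Mmp8 +9.1 kb (chr9:7567076-7568026), in the 3′ end of the gene, was matched in all 17 lists at ranks from 4926 to 12738. Its difference at 1 h was 0.49 ± 0.16 (SE), 0.80 in WT and 0.18 in KO, with adjusted p = 0.103 in the exact permutation test. Mmp19 −11.3 kb (chr10:128778482-128781461) was matched in all 17 lists at ranks from 2311 to 10508, with a difference of −0.04 ± 0.23 (SE).

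**Figure D3:**
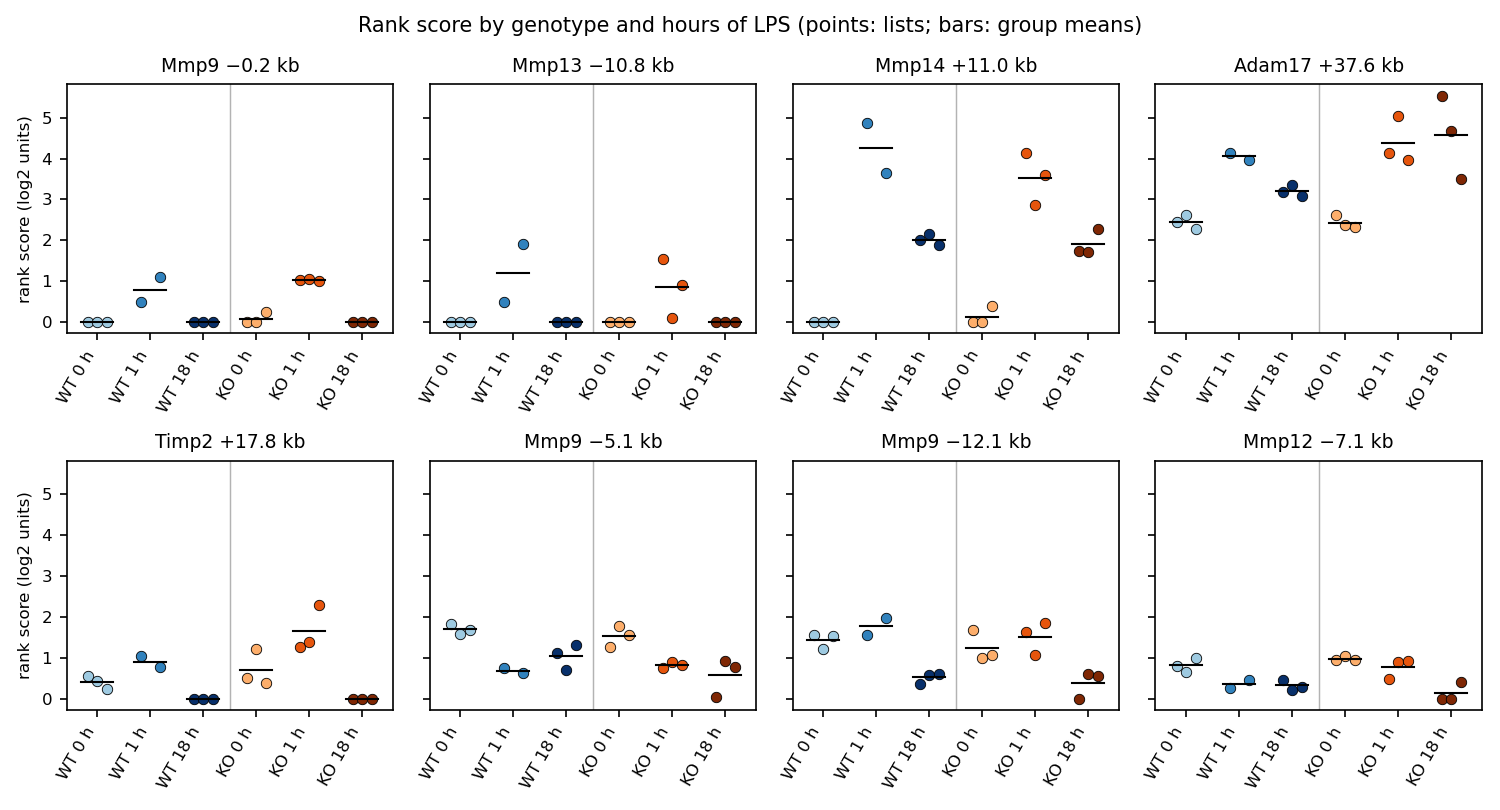
Rank score (log2 units, higher is nearer the top of the list) of 8 elements in the 6 groups, with a point per list and a bar at the group mean. In the upper row and at Timp2 +17.8 kb all points at 1 h lie above those at 0 h of the same genotype, and at Mmp9 −5.1 kb and Mmp12 −7.1 kb all lie below.

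At 18 h of LPS against 0 h, 7 of the 34 elements moved (20.6%, beside 14.9% of all elements), 2 ahead and 5 behind, beside 6.27% and 8.65%. All 7 had adjusted p = 0.0335 in the exact permutation test over 400 regroupings. Mmp14 +11.0 kb had a matched peak in 1 of the 6 lists at 0 h and Timp2 +17.8 kb in 0 lists at 18 h, and both also qualified as elements through the lists at 1 h, which this comparison does not use. This comparison shares the lists at 0 h with the earlier one, so the values of both are set side by side without a count in common. All 7 were distal, 2 of 21 ahead and 5 of 21 behind, beside 7.84% and 8.76% of all distal elements, and 0 of the 13 promoters moved, beside 2.61% ahead and 8.4% behind. At an unadjusted p under 0.05 there were 10 of 34, beside 30.8% of all elements. Without the narrow-peaked list of KO at 18 h replicate 1, 9 elements moved, beside 20.1% of all, and 0 moved when a peak had to cover 50% of the element. With ranks limited at 10000, 2 moved ahead and 0 behind, and by presence alone 0 ahead and 1 behind, both with 0 by adjusted p. The median difference was −0.04 over the 34 elements and 0.00 over all elements.

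Ahead at 18 h stood Mmp14 +11.0 kb and Adam17 +37.6 kb. Mmp14 +11.0 kb ranked 6105, 5488 and 6628 in WT and 7299, 7450 and 5024 in KO, ahead of all lists at 0 h and behind all lists at 1 h. The WT rank score was 2.01 ± 0.14 (SD, n = 3), that of KO 1.91 ± 0.32 (n = 3), and the difference from 0 h was 1.89 ± 0.12 (SE), beside 3.84 at 1 h. Adam17 +37.6 kb ranked 2683, 2371 and 2888 in WT and 526, 962 and 2160 in KO, a difference of 1.45 ± 0.31 (SE), of which 0.76 in WT and 2.13 in KO. When a peak had to cover 50% of the element the difference turned to −0.45. The difference between these responses, 1.37 ± 0.61 (SE), had p = 0.075 and adjusted p = 0.937 in the exact permutation test.

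Behind at 18 h stood 3 Mmp9 elements, Mmp12 −7.1 kb and Timp2 +17.8 kb. Mmp9 −12.1 kb (chr2:164935604-164936646), the distal element of Mmp9 with the best median rank, had ranks of 8251, 10588 and 8363 in WT and 7661, 12308 and 11660 in KO at 0 h, and of 18991, 16193 and 16064 in WT and 28007, 15965 and 16727 in KO at 18 h. It had not moved at 1 h (8263 and 6218 in WT, 7859, 11685 and 6785 in KO), and the difference was −0.89 ± 0.16 (SE) at 18 h against 0.30 ± 0.20 at 1 h. Mmp9 −5.1 kb remained behind its level at 0 h, with a difference of −0.81 ± 0.18 (SE), and Mmp9 +24.7 kb likewise, with −0.53 ± 0.06 (SE). Mmp12 −7.1 kb (chr9:7336523-7337691) ranked 13941, 15466 and 12177 in WT and 12623, 11810 and 12738 in KO at 0 h. At 18 h it ranked 17627, 20898 and 19845 in WT, 28007 and 18251 in KO replicates 1 and 3, and had no peak in KO replicate 2, a difference of −0.67 ± 0.09 (SE).

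Timp2 +17.8 kb moved ahead at 1 h and behind at 18 h. It had no peak in any WT list at 18 h and in KO only one in replicate 1, at rank 28007, and the difference from 0 h was −0.56 ± 0.14 (SE), beside 0.72 at 1 h. The Mmp9 promoter and Mmp13 −10.8 kb, which had moved ahead at 1 h, were not among the best 24389 of any list at 18 h. The Mmp9 promoter then ranked 39383, 44712 and 38702 in WT and had no peak in the 3 KO lists, which hold only 36136, 29568 and 32187 intervals and so could not show a peak at the WT ranks, and Mmp13 −10.8 kb had no peak in any of the 6 lists. Their differences from 0 h were −0.04 ± 0.04 (SE) and 0.00, with values at or near the limit of the rank score in both groups.

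**Figure D4:**
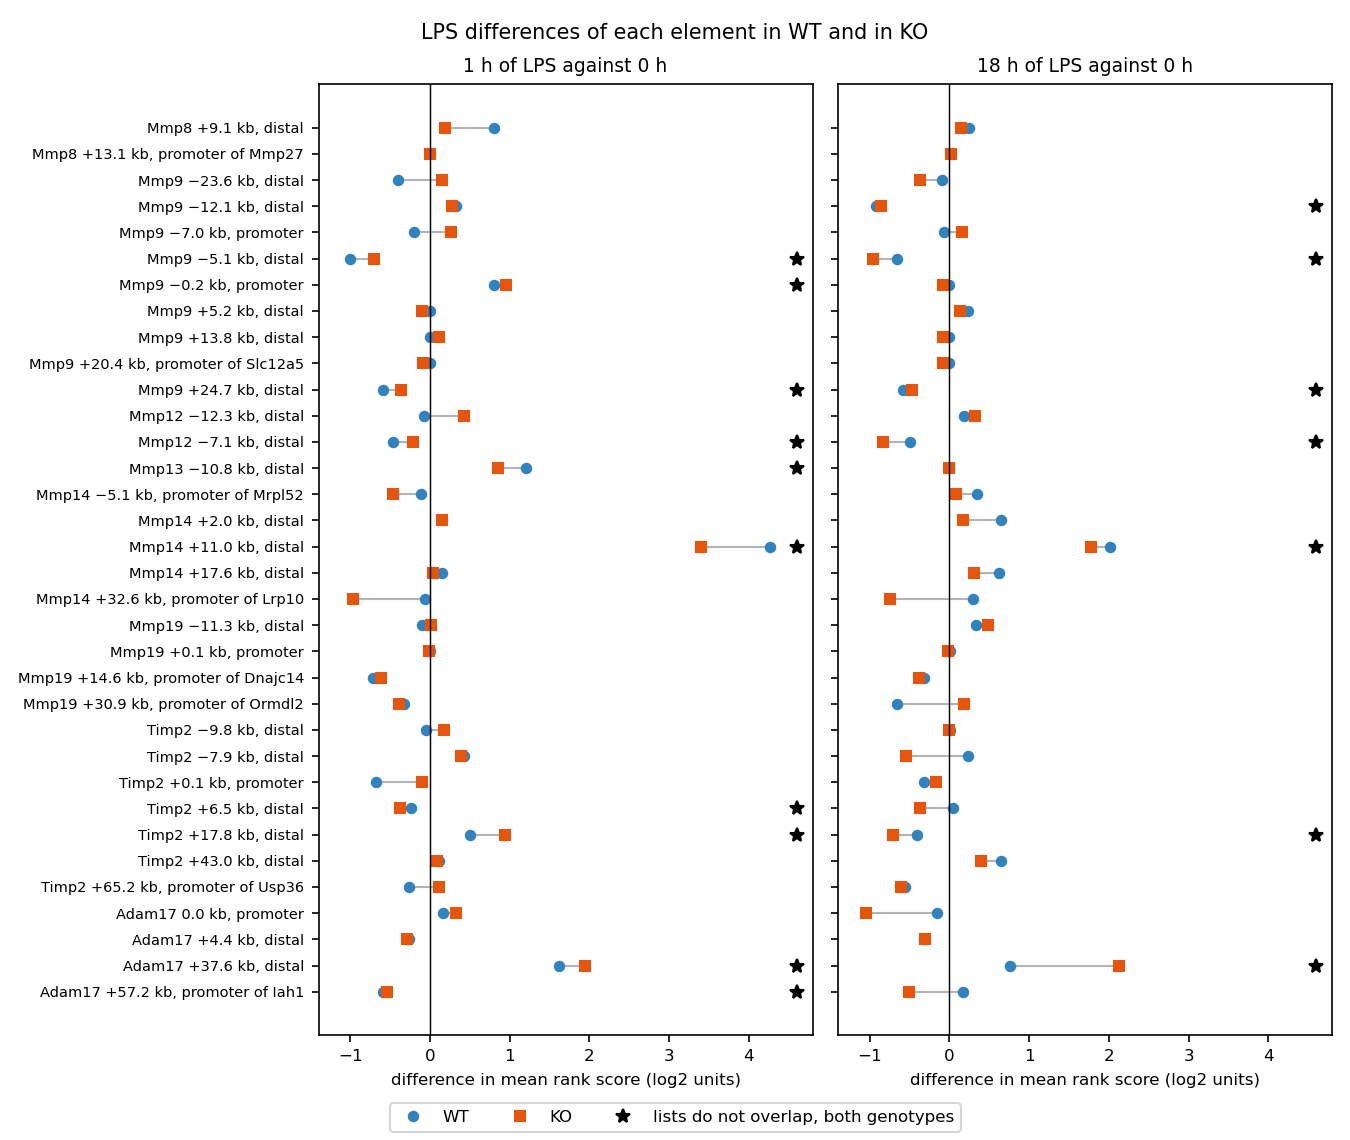
Difference in mean rank score (log2 units) from 0 h at 1 h (left) and 18 h (right) of LPS for the 34 elements, in WT (circles) and KO (squares). Stars mark elements whose lists did not overlap in both genotypes, 10 at 1 h and 7 at 18 h, with Mmp14 +11.0 kb farthest to the right at 1 h.

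KO and WT were compared to ask whether loss of Nur77 shifted these elements. In 0 of the 34 elements did all KO lists rank ahead of, or behind, all WT lists at each of the 3 times, beside 0.272% of all elements and 0.276% of the distal ones. In the exact permutation test over 4000 regroupings 0 elements had an adjusted p under 0.05, among the 34 as among all 34184 (0.0% called), and 1 of the 34 had an unadjusted p under 0.05, beside 6.97% of all. With limma on the same values 0 of the 34 were called as well, beside 0.562% of all elements.

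The 1 element was Timp2 −7.9 kb (chr11:118362243-118364030), upstream of Timp2 and the distal element with the best median rank of the 9 genes (1786). Its ranks were 1564, 2372 and 1224 in WT and 1904, 2096 and 3890 in KO at 0 h, 1376 and 1111 in WT and 1740, 1786 and 2241 in KO at 1 h, and 1486, 1402 and 1328 in WT and 4400, 4501 and 2411 in KO at 18 h. All KO lists were behind all WT lists at 1 h and at 18 h, and the lists overlapped at 0 h through WT replicate 2. Without that list they did not overlap at any time, and the difference was −0.95. With all lists the KO minus WT difference was −0.86 ± 0.20 (SE), −0.59 at 0 h, −0.63 at 1 h and −1.37 at 18 h, with p = 0.0015 and adjusted p = 0.267 in the exact permutation test. KO lists at 18 h were shallower than WT lists (1.10 to 1.76 against 4.62 to 8.38 background reads per kb), and the difference adjusted for depth was −0.67. LPS did not move this element (0.40 ± 0.26 at 1 h and −0.15 ± 0.26 at 18 h, SE).

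Whether LPS acted differently on the 2 genotypes was tested directly. In the exact permutation test of the difference between responses, 0 of the 34 elements and 0 of all elements (0.0%) had an adjusted p under 0.05 at 1 h or at 18 h. At an unadjusted p under 0.05 there were 0 of 34 at 1 h and 1 of 34 at 18 h, beside 3.59% of all elements at either time. The KO response minus the WT response was −0.86 ± 0.59 (SE) at 1 h and −0.23 ± 0.24 at 18 h for Mmp14 +11.0 kb, and 0.15 ± 0.22 at 1 h for the Mmp9 promoter. Each response rests on 2 or 3 lists per group, and 0 differences passed the adjusted test, including some larger than 2 times their error, so these lists leave such differences undecided.

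**Figure D5:**
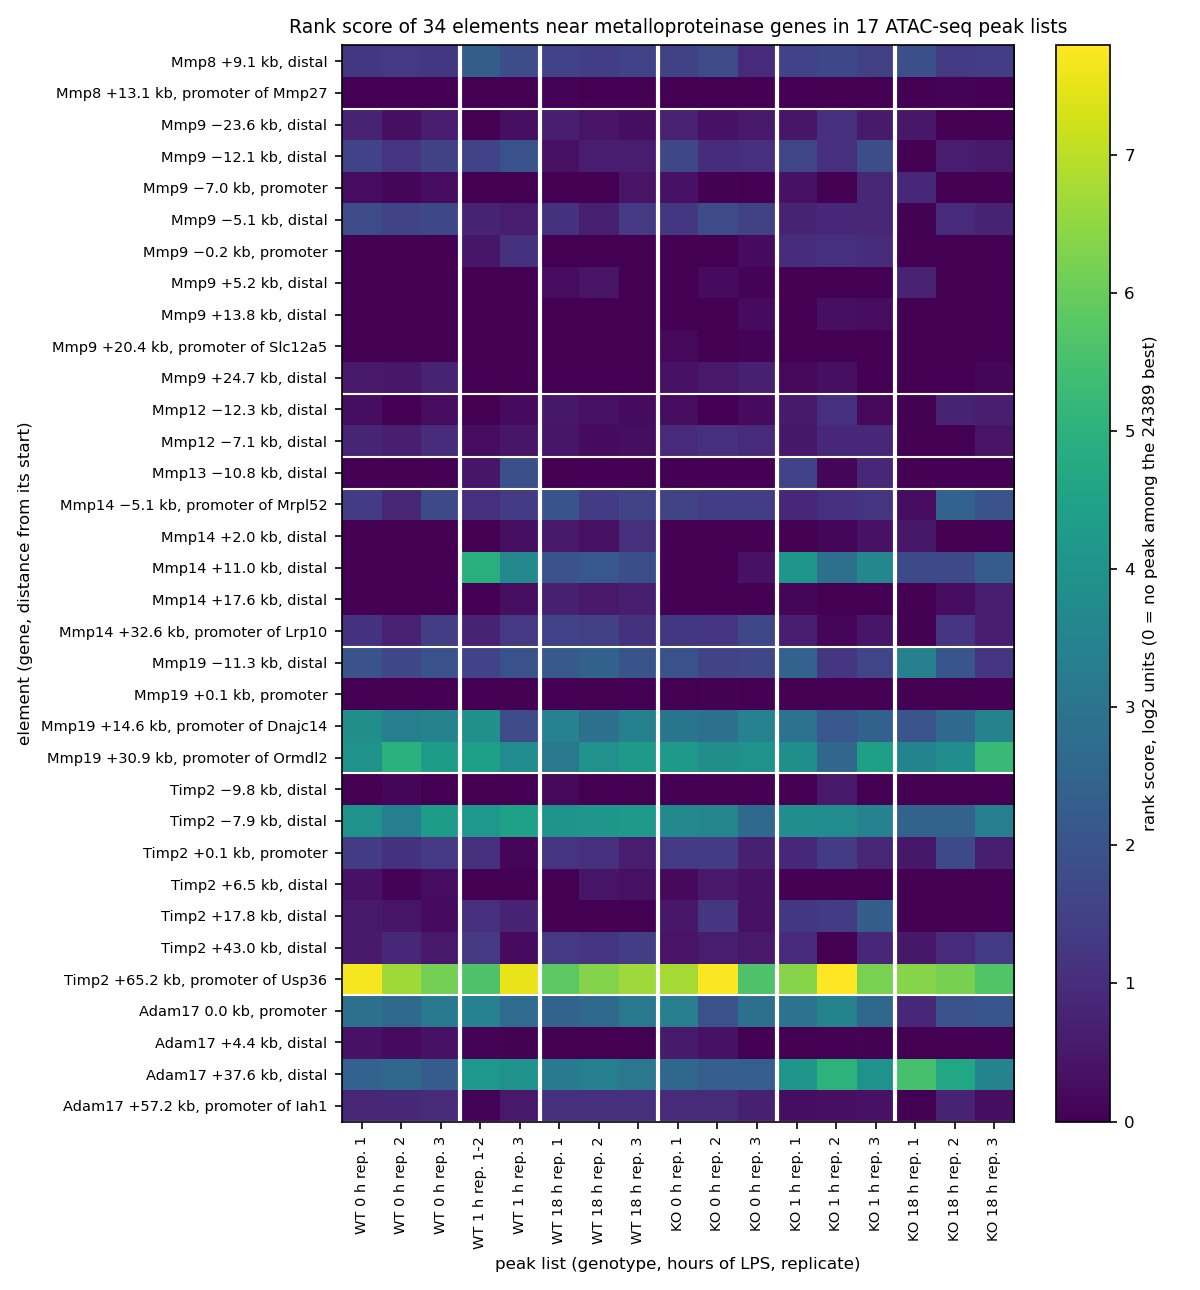
Rank score (log2 units, colour) of the 34 elements in the 17 lists, grouped by gene in rows and by genotype and time in columns, dark meaning no peak among the 24389 best. Mmp14 +11.0 kb is dark at 0 h in 5 of 6 lists and bright at 1 h and 18 h, Timp2 −7.9 kb is bright in all lists, the Adam17 promoter is dimmer in KO at 18 h replicate 1 (rank 13081) than in the other lists, and Mmp13 −10.8 kb is lit only at 1 h.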

How the data were processed

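ATAC-seq peak lists of 17 samples, 1 per sample, were used as the authors deposited them. According to the study's methods, reads were trimmed with cutadapt and mapped to mm10 by the snakeATAC pipeline with default parameters, and the submitters' processing notes name cutadapt 2.6 and DiffBind 3.0.15. The peak caller's version is not given in the sources used here. Each list belongs to 1 sample, and whether the WT list labelled replicate 1-2 pools replicates was not given. Each deposited entry holds a score, which was 10 times its −log10 q, a fold enrichment at the summit, and a −log10 p and a −log10 q, which the authors' peak caller wrote. Deposited peaks had passed a q-value threshold of 0.001 and a mapping quality of 20, as their names show.

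Entries sharing an interval were reduced to the summit with the smallest p, and intervals were ranked by −log10 p inside each list. The best 24389 of each list, merged over lists by at least 1 bp and present in at least 2 lists, gave the elements. Ranks past 24389 were set to 24390, tied peaks shared their mean rank, and which tied peaks counted among the best 24389 was drawn with a fixed seed, so that a peak ranked near that number can fall on either side. Background reads at a position were recovered from the deposited fold and −log10 p (whole to within 0.0001 for 100% of entries), and give the depth of a list as an index, since totals of reads were not used here. Elements were tested with a two-sided exact permutation test of mean log2 rank, regrouped within genotype or time, with Benjamini-Hochberg adjustment over all 34184 elements. The procedure was tested on simulated data.

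Named with values were each promoter of the 9 genes, the distal element of each with the best median rank, and up to 3 more that moved. The genes and lists were chosen with earlier results of these data known. Alternatives were a cap at 10000, no cap, presence alone, summit inside or 50% cover, depth adjustment, limma 3.58.1 in R 4.3.3, a replicate block, and each list left out. Other steps used Python 3.11.15, numpy 2.4.6, scipy 1.17.1, pandas 2.3.3 and pysam 0.24.0. Sequences came from the RefSeq copy of GRCm38 and gene models from GENCODE M21. The result of 1 cell type marker is not reported here.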

Additional observations from a re-analysis of the deposited data

Results flagged for a closer look

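The promoter of Lrp10, a receptor gene 32.6 kb past the Mmp14 start, had an unadjusted p under 0.05, but not an adjusted one, in the test of whether the change from 0 h to 18 h of LPS differs between the genotypes. It was 1 of 34 elements, beside 3.59% of all. The KO response minus the WT response was −1.05 ± 0.44 (SE), with p = 0.04 and adjusted p = 0.937 in the exact permutation test over all elements. Its ranks were 10981, 14854 and 9109 in WT and 10260, 10484 and 7714 in KO at 0 h, and 8232, 8820 and 10988 in WT and 23855, 10733 and 15381 in KO at 18 h. At 1 h the same difference was −0.90 ± 0.39 (SE), with p = 0.05 in the exact permutation test. The ranks at 1 h were 14418 and 9881 in WT and 15333, 22863 and 17691 in KO. The WT and KO lists overlapped at 0 h and at 18 h and did not overlap at 1 h.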

How the results depend on the processing

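Among the 34 elements, ranks capped at 10000 left 2 moved at 1 h and 2 at 18 h, all ahead (100%), beside 7.9% and 4.72% of all elements, presence alone left 1 and 1, all behind (0% ahead), beside 4.66% and 3.71%, and both gave 0 with an adjusted p under 0.05. When a peak had to cover 50% of the element, 0 moved at either time by either rule (4.91% and 2.66% of all elements moved), and Adam17 +37.6 kb turned to −0.45 at 18 h; fewer peaks then belong to an element. Without a cap, 11 elements had an adjusted p under 0.05 at 18 h, beside 31.3% of all. Leaving out each list in turn gave 10 to 11 moved at 1 h (0 to 10 by adjusted p) and 7 to 9 at 18 h (5 to 9), and 0 to 1 that differed between KO and WT (0 by adjusted p), the 1 being Timp2 −7.9 kb without WT 0 h replicate 2. With all lists in, the shares of all elements were 20.4% at 1 h, 14.9% at 18 h and 0.272% between KO and WT. By adjusted p they were 22.6%, 14.9% and 0%. The share at 18 h rose as well without KO at 18 h replicate 1, as given above. The adjusted count at 1 h was 0 without WT 0 h replicate 1, 2 or 3, either WT list at 1 h, KO 0 h replicate 1 or KO 1 h replicate 1, where the smallest p the test allows rises to between 0.01 and 0.0167. With limma 12 elements were called at 1 h and 10 at 18 h, beside 27% and 22.9% of all, and 0 for genotype. The replicate block counted an element when all pairs of lists with the same number differed the same way, a looser rule than no overlap. It gave 14 at 1 h, 8 at 18 h and 0 between KO and WT, beside 33.9%, 19.4% and 1.68%. In an exact test that flips the sign of each pair, the smallest adjusted p among the 34 was 0.368, 0.161 and 0.885. At 1 h the 4 pairs allow no p under 0.125. Deviations of lists that share a number correlated at −0.226 to 0.206 and those of other lists at −0.276 to 0.404. Being taken from means of 2 or 3 lists, these deviations are tied to each other and cannot show whether the number pairs lists. Of values of single elements under settings other than a list left out, 44 lost the call and 1 reversed. The shallowest list holds 3 reads at its last matched peak, which limits what ranks can separate.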
